A study of Homo sapiens with 6 samples.

Results

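The genes of ribosome biogenesis and RNA polymerase I (Pol I) were examined in TFK-1 cells, an established human line of extrahepatic cholangiocarcinoma (ECCA). The set was a list of 46 genes taken by name for their role. No measured value entered that rule, but earlier results of these data were known when the list was chosen. It held 3 proteins of box C/D and 4 of box H/ACA small nucleolar ribonucleoproteins (snoRNPs), 15 factors of the small subunit (SSU) processome, 16 large-subunit assembly factors, 4 abundant nucleolar proteins and 4 subunits of Pol I. Of these, 44 were measured, through 61 probes, among 18336 genes on the array. DDX10 and NHP2 were not measured here.

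Transcripts of cells with HOXA5 overexpression, a lentiviral Flag-HOXA5 construct, were compared with those of cells labelled as normal control, which carried the matching negative control vector per the methods, with 3 samples and 3 one-colour Human OneArray slides per group. Cells of both groups were TFK-1, transduced with lentivirus and kept under puromycin as stable lines, and how many transductions stand behind a group is not given in the sources used here. Nothing in the labels tells whether the 3 samples of a group were separate cultures, so each p-value reflects variation among these samples that could be technical only. The comparison asks which transcripts differ once HOXA5, a homeobox transcription factor, is overexpressed.

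The arrays differed in brightness. Median raw intensity was 177, 176 and 95 on the HOXA5 arrays and 180, 166 and 126 on the control arrays (replicates 1, 2 and 3), and between 17150 and 21154 of the 31741 probes were not dim (flag 0), the fewest on HOXA5 replicate 3. All 44 probes that stand for a member were at flag 0 on all 6 arrays. The brighter HOXA5 probe was higher by 1.94 ± 0.12 on the log2 scale (SE, n = 3 per group, limma, adjusted p = 0.000766), while its other probe was lower by 0.34 ± 0.07, a log2 change of -0.34 (adjusted p = 0.0253). In control the brighter probe read 110, 118 and 49 in raw intensity, near the dim range, and it was at flag 0 on 5 of the 6 arrays. The other probe read 96 to 222 over all 6. Over 17 alternatives of the processing the HOXA5 change was 0.80 to 2.28, called higher in each. Of 7 biliary epithelial markers 6 were measured and 5 were at flag 0 on every array, with KRT19, EPCAM, SOX9 and CDH1 bright. KRT7 (raw intensity 55 to 185) and KRT8 (103 to 281) were near the dim range. By limma, KRT19 (0.44), SOX9 (0.75) and CDH1 (1.40) were higher with HOXA5 on the log2 scale, as was the hepatocyte gene APOA1 (0.89), and no other marker was called. Their part in the results was not tested. The summed raw intensity of the biliary list was 59181 to 88437 on the HOXA5 arrays and 53145 to 70741 on the control arrays. The markers of hepatocytes, fibroblasts, endothelial and immune cells each summed to 1728 or less on any array, and 9 of these 19 measured genes were dim on all 6.

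Ribosome production begins in the nucleolus, where Pol I transcribes the ribosomal RNA precursor. Box C/D snoRNPs guide its methylation, box H/ACA snoRNPs guide its pseudouridylation, and the SSU processome and a chain of large-subunit factors fold, cut and package it into the precursors of both ribosomal subunits. Growing tumour cells depend on this pathway, and many of its genes are known targets of MYC, which binds the E-box CACGTG together with MAX; MXD1 competes with MYC for MAX.

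Promoter stretches of 8 members are printed because the E-box lay at the start site in many members, whether or not their transcripts were lower. The 8 were chosen after their values were seen and do not mirror the list. Of measured members with a promoter window, 7 of 18 called lower (38.9%) and 10 of 18 not called (55.6%) held an E-box. Each runs from 75 bases before to 25 bases from the transcription start on, 5′ to 3′ on the gene's own strand, as in RefSeq on build GRCh38.p14, and capitals mark CACGTG, which reads the same on both strands. UTP20 (chr12:101280030-101280129, plus strand), UTP18 (chr17:51260471-51260570, plus), PES1 (chr22:30591886-30591985, minus), NOP14 (chr4:2963382-2963481, minus) and WDR43 (chr2:28894592-28894691, plus) were lower with HOXA5 and held an E-box there, FBL (chr19:39846355-39846454, minus) and MRTO4 (chr1:19251730-19251829, plus) held one without passing the test, and NOP56 (chr20:2652557-2652656, plus) was lower and held none.
UTP20: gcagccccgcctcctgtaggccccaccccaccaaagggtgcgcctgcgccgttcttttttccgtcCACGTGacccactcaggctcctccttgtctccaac
UTP18: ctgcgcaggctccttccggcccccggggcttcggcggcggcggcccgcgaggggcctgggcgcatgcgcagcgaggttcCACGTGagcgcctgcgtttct
PES1: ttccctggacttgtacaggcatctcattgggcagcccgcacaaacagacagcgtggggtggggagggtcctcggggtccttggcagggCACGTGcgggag
NOP14: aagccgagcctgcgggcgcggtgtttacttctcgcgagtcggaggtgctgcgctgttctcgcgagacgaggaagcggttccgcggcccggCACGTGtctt
WDR43: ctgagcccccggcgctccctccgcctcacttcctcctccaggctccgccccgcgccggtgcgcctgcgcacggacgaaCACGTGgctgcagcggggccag
FBL: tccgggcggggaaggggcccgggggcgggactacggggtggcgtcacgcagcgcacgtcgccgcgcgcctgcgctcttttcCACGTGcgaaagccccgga
MRTO4: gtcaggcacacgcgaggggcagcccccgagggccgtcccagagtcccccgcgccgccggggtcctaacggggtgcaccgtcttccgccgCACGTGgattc
NOP56: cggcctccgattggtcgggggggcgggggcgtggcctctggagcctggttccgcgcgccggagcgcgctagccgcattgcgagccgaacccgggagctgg

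With HOXA5 overexpression, transcripts were lower in 22 of the 44 measured members (50%), and none was called higher (1, MRTO4, with cyclic loess or an offset of 100), against 11% of all genes called lower and 13.1% called higher (limma, Benjamini-Hochberg adjusted p under 0.05 over all probes). Of the 11280 genes that, like all members, were at flag 0 on all 6 arrays, 15.4% were lower, and of the 8701 as bright as the dimmest member 17.8%. The median change of the members was -0.55 on the log2 scale, with a range of -1.96 to 0.31, and that of all genes was -0.01. The change was below 0 in 43 members, the saturated NPM1 probe included (42 with median scaling or the authors' values, 41 with cyclic loess), and for all genes in 51.7%. HOXA5 and control arrays did not overlap, with HOXA5 lower, in 31 members (70.5%). This held for 20.4% of all genes and 23.7% of those at flag 0 on all 6 arrays. With HOXA5 higher they did not overlap in 1 member, against 21% of all genes. By size, 8 of the 44 members were lower at least 2-fold. Of all 18336 genes 438 were (2.39%), and of the 11280 at flag 0 on all arrays 408. The members called lower were 13 without control replicate 3 (29.5%, all genes 6.69%) and 14 without control replicate 1 (31.8%, all genes 5.85%). Without both replicate 3 arrays, an alternative chosen after seeing the data because these were the dimmest of their groups, 5 were lower (11.4%, all genes 2.19%), 4 of them at least 2-fold, and 43 changes were again below 0. In RNA of a whole culture, fewer cells that carry a transcript and less of it per cell cannot be told apart.

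**Figure D1:**
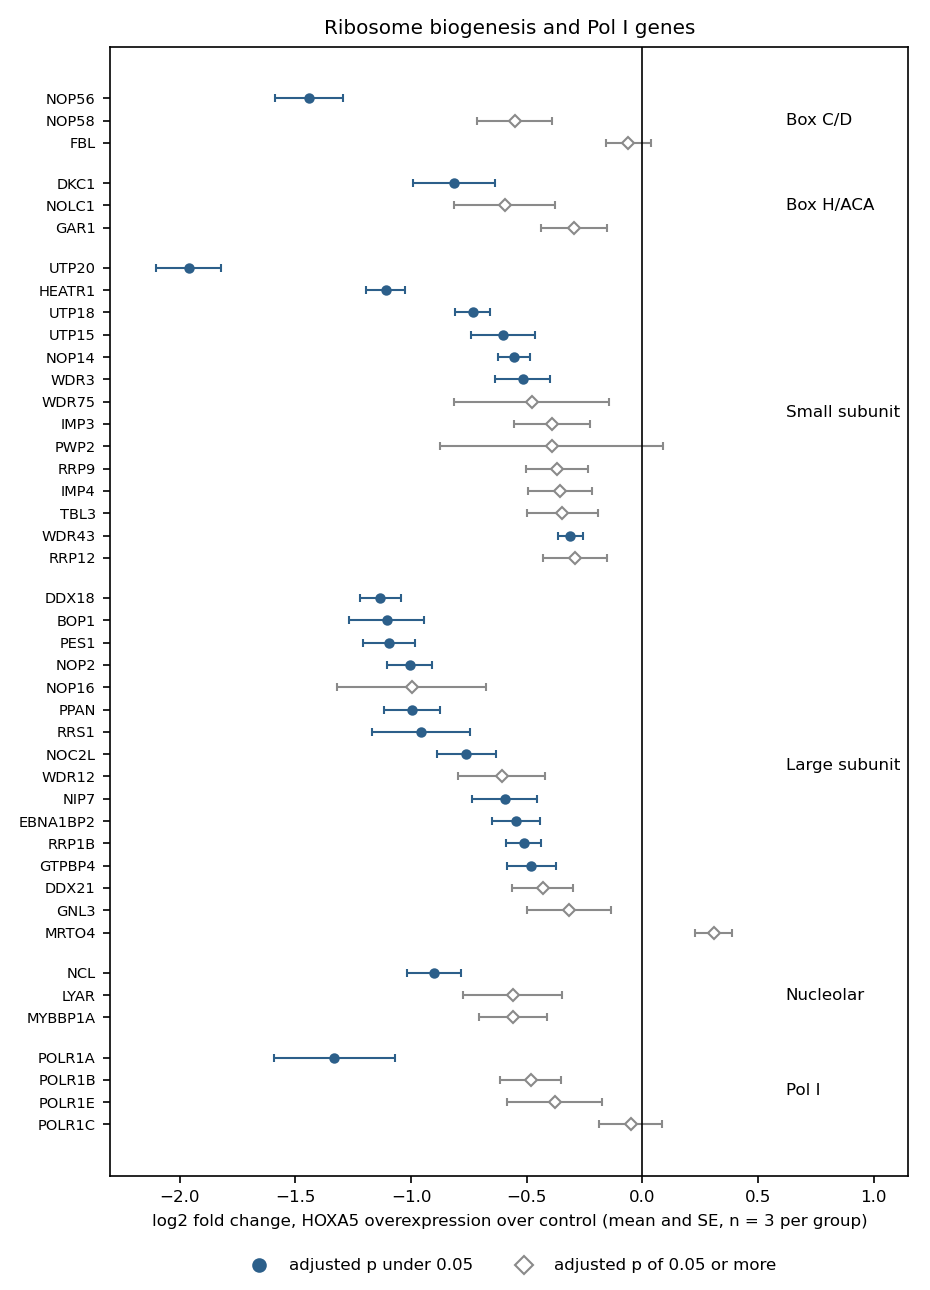
Log2 fold change of HOXA5 overexpression over control (x axis, mean and SE, n = 3 per group) for 43 measured members grouped by role, NPM1 left out because its probe was saturated. Filled circles passed an adjusted p under 0.05 and open diamonds did not; UTP20 lies furthest left at -1.96 and MRTO4 alone lies right of 0, at 0.31.

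Every HOXA5 array carried the shift. Set against the mean of the control arrays, the median of the 44 members was -0.47, -0.69 and -0.58 on HOXA5 replicates 1, 2 and 3, while the median of all genes was -0.02, 0.02 and -0.01. On these 3 arrays 41, 41 and 42 members lay below the control mean.

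Among the box C/D proteins, NOP56, a core scaffold of these particles, had the second lowest log2 change of the list. Its normalized log2 intensity was 10.82, 11.22 and 10.76 on the HOXA5 arrays and 12.53, 12.28 and 12.31 on the control arrays, with no overlap. The change was -1.44 ± 0.15 (limma, adjusted p = 0.00264), a 2.71-fold lower level, and the other NOP56 probe had -0.64 ± 0.15 (adjusted p = 0.0348). NOP58, the partner of NOP56 in the particle, had 13.34, 12.75 and 12.88 with HOXA5 and 13.63, 13.45 and 13.55 in control. These groups did not overlap either, but the change of -0.55 ± 0.16 missed the threshold (limma, adjusted p = 0.0698). FBL (fibrillarin), the methyltransferase of the same particles, had 15.43, 15.13 and 15.30 with HOXA5 and 15.42, 15.25 and 15.38 in control, so that the groups overlapped. Its change was -0.06 ± 0.10, with a 95% interval of -0.30 to 0.18 (limma, adjusted p = 0.734), and 0.05 with cyclic loess.

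Of the box H/ACA proteins, DKC1 (dyskerin), the pseudouridine synthase, had 11.53, 12.08 and 11.61 on the HOXA5 arrays and 12.74, 12.53 and 12.38 on the control arrays. It was lower by a log2 change of -0.81 ± 0.18 (limma, adjusted p = 0.0278), a call that was lost when HOXA5 replicate 1 or 3 or any control array was left out. DKC1 also lost the call with the authors' values and by the methods' t-test (adjusted p of at most 0.149 over all alternatives). GAR1, another core protein, had a change of -0.30 ± 0.14 on its brighter probe (adjusted p = 0.222), with 9.28, 9.17 and 8.85 against 9.57, 9.38 and 9.24 in control. Its dimmer probe gave 7.59, 7.68 and 7.70 with HOXA5 against 8.81, 8.49 and 8.55, a change of -0.96 ± 0.10 that passed (limma, adjusted p = 0.0028). NOLC1, a chaperone of snoRNPs also known as Nopp140, split in the same manner. The brighter probe read 13.13, 13.55 and 12.93 with HOXA5 against 13.95, 13.99 and 13.45, for a change of -0.59 ± 0.22 (adjusted p = 0.122), and the dimmer one 12.92, 12.32 and 12.72 against 13.82, 13.46 and 13.87, for -1.06 ± 0.19 (limma, adjusted p = 0.0152). In GAR1 and NOLC1 alike, the groups overlapped on the brighter probe only.

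UTP20, a very large HEAT-repeat protein of the SSU processome, had the lowest log2 change of all members. It read 8.39, 8.67 and 8.48 on the HOXA5 arrays and 10.55, 10.66 and 10.21 on the control arrays, and every HOXA5 array lay over 1 log2 unit below every control array. The change was -1.96 ± 0.14 (limma, adjusted p = 0.00108), a 3.89-fold lower level, on the single probe of this gene. HEATR1, the counterpart of yeast Utp10, had 9.01, 9.25 and 9.10 with HOXA5 and 10.23, 10.31 and 10.15 in control. It was lower by a log2 change of -1.11 ± 0.09 (limma, adjusted p = 0.0013). A second HEATR1 probe had 8.15, 8.58 and 7.98 against 9.17, 9.12 and 8.64, for -0.74 ± 0.21 (adjusted p = 0.0644), and another was dim on all arrays.

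In all, 7 of the 14 measured SSU factors were called lower, with a group median of -0.44. After UTP20 and HEATR1 came UTP18, a WD-repeat protein, at -0.73 (11.08, 10.99 and 11.12 with HOXA5 against 11.91, 11.77 and 11.71, adjusted p = 0.00276). NOP14, which works in the early particle, was at -0.55 (12.60, 12.68 and 12.70 against 13.10, 13.28 and 13.26, adjusted p = 0.00506). UTP15, a subunit of the complex that first meets the precursor, was at -0.60 ± 0.14 (limma, adjusted p = 0.0324), with 9.84, 9.75 and 10.12 against 10.52, 10.32 and 10.68, and its other probe had 8.0, 8.62 and 8.03 against 9.26, 8.90 and 8.51, for -0.68 ± 0.25 (adjusted p = 0.129). The overlap of that second probe came from HOXA5 replicate 2 and control replicate 3. WDR3 (-0.52, adjusted p = 0.0329) and WDR43 (-0.31, adjusted p = 0.0126), both WD-repeat subunits, completed the calls by limma. WDR43 had the smallest change of any called member, with 13.56, 13.56 and 13.61 with HOXA5 against 13.91, 13.92 and 13.84. The calls of UTP15, WDR3 and WDR43 did not hold without some single arrays: for UTP15 HOXA5 replicate 1 or 2 or control replicate 1 or 3, for WDR3 HOXA5 replicate 1 or any control array, and for WDR43 control replicate 1 or 2, with adjusted p of at most 0.111, 0.0997 and 0.0936 over all alternatives.

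The other 7 measured SSU factors lay between -0.48 and -0.29 without passing the test. WDR75 had -0.48 (adjusted p = 0.397), RRP9, a protein specific to the snoRNP that base-pairs with the precursor at the processome, -0.37 (adjusted p = 0.119), IMP3 -0.39 (adjusted p = 0.165), IMP4 -0.36 (adjusted p = 0.137), TBL3 -0.35 (adjusted p = 0.183) and RRP12, a factor of the late small-subunit precursor, -0.29 (limma, adjusted p = 0.212). PWP2, a scaffold of the early processome, had the largest SE of the probes used. The brighter probe read 12.23, 10.93 and 12.48 on the HOXA5 arrays and 12.20, 11.79 and 12.82 on the control arrays, for -0.39 ± 0.48 (adjusted p = 0.649). Replicate 2 was the lowest array in both groups there. The dimmer PWP2 probe had 9.79, 9.74 and 9.40 against 10.17, 10.51 and 10.15, for -0.63 ± 0.15, and was lower (limma, adjusted p = 0.0378).

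The large-subunit factors held the most calls, 11 of 16, with a group median of -0.68. PES1, BOP1 and WDR12 form the PeBoW complex, which is needed for the large-subunit precursor RNA to mature. PES1 had 9.16, 9.41 and 9.04 on the HOXA5 arrays against 10.29, 10.40 and 10.20 on the control arrays, and was lower at -1.10 ± 0.11 (limma, adjusted p = 0.00283). BOP1 had 10.05, 10.59 and 10.07 against 11.41, 11.39 and 11.22, and was lower at -1.11 ± 0.16 (limma, adjusted p = 0.0081). Neither gene showed overlap. WDR12 had 11.27, 10.59 and 10.93 against 11.70, 11.40 and 11.52, which did not overlap, but its change of -0.61 ± 0.19 was not called (limma, adjusted p = 0.0785).

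DDX18, a DEAD-box helicase, read 8.08, 8.03 and 8.15 with HOXA5 and 9.38, 9.15 and 9.13 in control, and was lower at -1.13 ± 0.09 (limma, adjusted p = 0.00133). NOP2, a methyltransferase that acts on large-subunit ribosomal RNA, read 9.28, 9.45 and 9.39 against 10.54, 10.27 and 10.33, and was lower at -1.01 ± 0.10 (limma, adjusted p = 0.0022). In both genes the control arrays all lay above the HOXA5 arrays. PPAN, the counterpart of yeast Ssf1, lay just short of 2-fold at -0.99 ± 0.12 (adjusted p = 0.00445), and its second probe was beyond it at -1.23 ± 0.16 (limma, adjusted p = 0.00603). Readthrough transcripts join PPAN to its neighbour P2RY11, and which of them the probes report was not tested.

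Of the other called large-subunit factors, RRS1 was at -0.96 (adjusted p = 0.0298), NOC2L at -0.76 (adjusted p = 0.0127), NIP7 at -0.60 (adjusted p = 0.0369), EBNA1BP2 at -0.55 (adjusted p = 0.0183), RRP1B at -0.51 (adjusted p = 0.0083) and the GTPase gene GTPBP4 at -0.48 (limma, adjusted p = 0.0285). Of these 6, RRP1B alone kept its call in each leave-one-out fit. NOC2L lost it without control replicate 3, and EBNA1BP2 without HOXA5 replicate 3 or control replicate 2 or 3. RRS1 lost it without HOXA5 replicate 3 or control replicate 1 or 3, and GTPBP4 without HOXA5 replicate 1 or 3 or control replicate 1 or 3. NIP7 did so without HOXA5 replicate 1 or 3 or any control array. With all arrays kept, RRP1B and RRS1 lost the call with the authors' values, and GTPBP4 and NIP7 with cyclic loess. By the methods' t-test EBNA1BP2, RRS1, GTPBP4 and NIP7 lost it. NOP16, a nucleolar protein of the large-subunit precursor, had -1.0 ± 0.32 on its brighter probe (11.49, 10.39 and 10.93 against 11.90, 11.61 and 12.29), which missed the threshold (adjusted p = 0.0872), and -0.80 ± 0.18 on the other (11.10, 10.63 and 10.42 against 11.49, 11.58 and 11.47), which passed (limma, adjusted p = 0.0307). The larger change was thus the less certain, with an SD of 0.55 over the HOXA5 arrays. DDX21, a helicase that links Pol I transcription to processing, had -0.43 (adjusted p = 0.0771) and GNL3 (nucleostemin) -0.32 (limma, adjusted p = 0.3).

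MRTO4 was the 1 measured member above 0. The protein resembles the ribosomal stalk protein and holds its place during assembly. The HOXA5 arrays had 8.59, 8.83 and 8.61 and the control arrays 8.33, 8.38 and 8.39, without overlap, for a change of 0.31 ± 0.08 with a 95% interval of 0.10 to 0.51 (limma, adjusted p = 0.0508). It passed the threshold with an offset of 100, with cyclic loess and without HOXA5 replicate 2, and in no other alternative. Over all alternatives the MRTO4 change was 0.23 to 0.35, with adjusted p of at most 0.536 (limma or the methods' t-test).

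**Figure D2:**
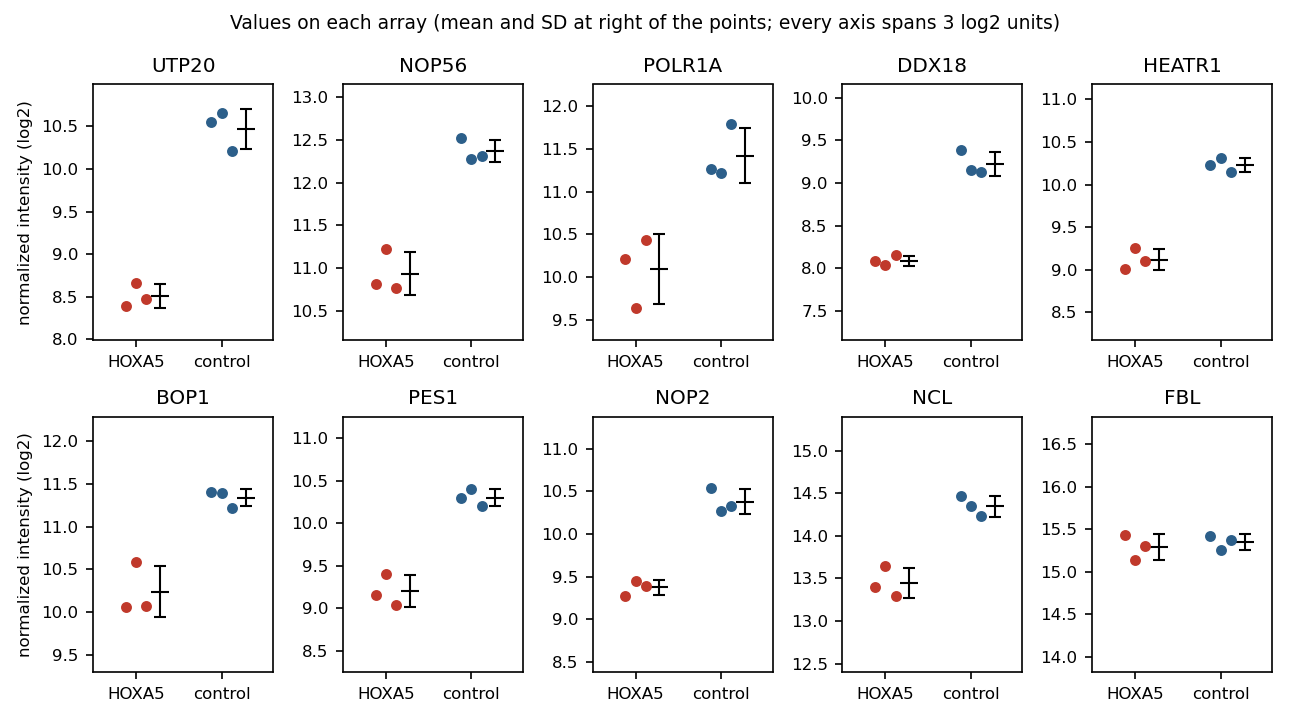
Normalized log2 intensity (y axis, 3 log2 units in every panel) on each of the 3 HOXA5 arrays (red) and 3 control arrays (blue) for the 8 members lower at least 2-fold and for NCL and FBL, with mean and SD beside the points. The groups are apart in 9 panels; in FBL they overlap.

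NCL (nucleolin), a histone chaperone and RNA-binding protein that is among the most abundant in the nucleolus, had 13.39, 13.64 and 13.30 on the HOXA5 arrays and 14.47, 14.34 and 14.23 on the control arrays. It was lower by a log2 change of -0.90 ± 0.12 (limma, adjusted p = 0.00528), a 1.87-fold lower level. NPM1 (nucleophosmin), another abundant nucleolar protein, had raw intensities of 65513, 65510 and 58144 with HOXA5 against 65514, 65513 and 65514, at the scanner's ceiling on 5 of 6 arrays. No fold is given for that probe, which counts among the members not called. A second NPM1 probe had 13.32, 14.20 and 13.34 against 14.60, 14.46 and 14.06, for -0.76 ± 0.28 (adjusted p = 0.128), and another had -0.43 ± 0.17 (limma, adjusted p = 0.151). The Pol I regulator MYBBP1A had -0.56 (adjusted p = 0.0511), and LYAR, a nucleolar protein of proliferating cells, had -0.56 (limma, adjusted p = 0.134). HOXA5 and control arrays were apart on the used probe of both.

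POLR1A, the largest subunit and catalytic core of Pol I, had 10.21, 9.63 and 10.43 on the HOXA5 arrays and 11.26, 11.21 and 11.79 on the control arrays. These groups did not overlap, and the change was -1.33 ± 0.26 (limma, adjusted p = 0.0201), a 2.52-fold lower level. Its dimmer probe, with 7.67, 7.74 and 7.41 against 8.08, 8.28 and 8.01, had a smaller change of -0.51 ± 0.12 (limma, adjusted p = 0.0337). The call on the brighter probe was lost without HOXA5 replicate 1 or without any 1 of the control arrays. It was also lost with all arrays by the methods' t-test, with adjusted p of at most 0.0721 over all alternatives.

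POLR1B, the second subunit of the catalytic core, had 11.13, 11.07 and 11.46 with HOXA5 and 11.74, 11.54 and 11.83 in control. The arrays were apart, yet the change of -0.48 ± 0.13 missed the threshold (limma, adjusted p = 0.0571). A dimmer POLR1B probe had 7.65, 6.18 and 7.90 against 8.02, 7.83 and 8.89, which overlapped, for -1.0 ± 0.54 (limma, adjusted p = 0.268). POLR1E, a subunit of Pol I that helps it start and elongate, had 11.71, 10.97 and 11.47 against 11.71, 11.63 and 11.94, for -0.38 ± 0.21 and a 95% interval of -0.89 to 0.13 (limma, adjusted p = 0.275). POLR1C, which Pol I shares with Pol III, had 12.54, 12.60 and 12.30 against 12.59, 12.70 and 12.30, for -0.05 ± 0.14 and a 95% interval of -0.39 to 0.29 (limma, adjusted p = 0.852). The subunits thus ran from a 2.52-fold lower level to an overlap of the groups, and these 4 genes had a median of -0.43.

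Where a gene had more than 1 probe, the probes kept the sign and often not the size. In 15 members, 16 further probes were at flag 0 on at least 3 arrays, and all 16 had the sign of the probe used. The call was the same in 10 of these 16 pairs, lower on both probes in 3 (NOP56, PPAN and POLR1A) and on neither in 7. The pairs of NPM1 count among those 7, though its saturated probe can show neither sign nor call. How often probes of a gene agree over all genes was not counted. The used probe alone was called in UTP15 and HEATR1, and the further probe alone in GAR1, NOLC1, PWP2 and NOP16. Counting a member by any of these probes gave 26 of 44 called lower, against 16.6% of the 13383 genes with a detected probe, counted by the same rule. Which transcripts each probe can bind was not tested.

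**Figure D3:**
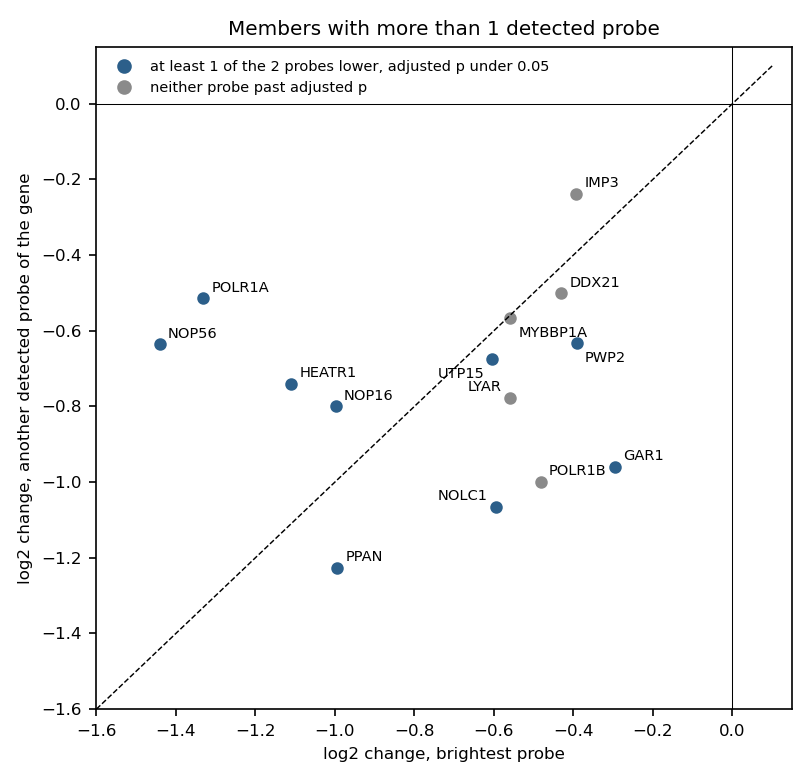
Log2 change of a member's brightest probe (x axis) against that of a further detected probe of the gene (y axis), with the dashed line marking equal change and NPM1 left out for saturation. All 14 points lie below 0 on both axes, and POLR1A, NOP56, GAR1, POLR1B and NOLC1 lie farthest from the line.

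A further 7 lists of the same machinery and of the other polymerases were counted the same way. They too were chosen by name, with earlier results of these data known. Together they held 166 genes, of which 159 were measured, 68 were called lower (42.8%) and 3 higher (1.89%), with a median of -0.48, beside 11% and 13.1% for all genes. The 68 became 38, 39 and 45 without control replicate 1, 2 or 3 (23.9%, 24.5% and 28.3%, against 5.85%, 6.16% and 6.69% of all genes). Without both replicate 3 arrays they became 6 (3.77%), near the 2.19% of all genes. The genes named are the 3 of each list with the lowest adjusted p, which need not have its largest changes, and any called higher. Of the other factors of the small subunit, 23 of 40 were lower and none higher (median -0.59), among them the RNA acetyltransferase NAT10 (-1.28 ± 0.07, adjusted p = 0.000669), the helicase DHX37 (-0.92 ± 0.09, adjusted p = 0.00207) and the processome subunit NOL11 (-0.85 ± 0.10, limma, adjusted p = 0.00453). The other large-subunit factors had 19 of 38 lower (median -0.52), among them LAS1L, part of a nuclease complex that cuts the spacer of the precursor (-1.23 ± 0.10, adjusted p = 0.0013), the helicase DDX54 (-0.87 ± 0.07, adjusted p = 0.00148) and RRP15 (-0.90 ± 0.07, limma, adjusted p = 0.00155). The 1 higher gene of that list was NOP53, which brings the exosome to the precursor (0.62 ± 0.10, limma, adjusted p = 0.00927).

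Pol I's other subunits and factors, a list that also holds subunits shared with other polymerases, had 5 of 17 lower and none higher (median -0.32). Among them were the upstream binding factor gene UBTF (-0.98 ± 0.18, adjusted p = 0.0156), the termination factor gene TTF1 (-0.64 ± 0.08, adjusted p = 0.00498) and POLR2F (-1.01 ± 0.13, limma, adjusted p = 0.00592), whose protein is shared by all the nuclear polymerases. Every subunit called in this list was a shared one. Of the further snoRNP factors 3 of 12 were lower (median -0.43): the assembly ATPases RUVBL2 (-1.05 ± 0.14, adjusted p = 0.00543) and RUVBL1 (-0.91 ± 0.16, adjusted p = 0.0156), and the core protein SNU13 (-0.59 ± 0.09, limma, adjusted p = 0.00772). PIH1D1, which works with both ATPases, was higher (0.39 ± 0.10, limma, adjusted p = 0.0415). The RNA exosome and RNase MRP list also held XRN2 and ISG20L2, exonucleases that belong to neither. In it 9 of 25 were lower (median -0.48), XRN2 and ISG20L2 among them. EXOSC10 was at -0.75 ± 0.08 (adjusted p = 0.00268), XRN2 at -0.73 ± 0.09 (adjusted p = 0.00551) and POP1 at -1.02 ± 0.14 (adjusted p = 0.00646), while the nuclease gene DIS3 was higher at 0.42 ± 0.10 (limma, adjusted p = 0.0412).

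The lower calls were not limited to Pol I. Of the Pol III subunits and factors 6 of 20 were lower (median -0.27), with GTF3C4 at -0.71 ± 0.09 (adjusted p = 0.00501), GTF3A at -0.32 ± 0.05 (adjusted p = 0.0087) and GTF3C5 at -0.75 ± 0.14 (limma, adjusted p = 0.0172). Of 7 subunits that belong to Pol II alone 3 were lower (median -0.41): POLR2D at -0.69 ± 0.10 (adjusted p = 0.00842), POLR2G at -0.46 ± 0.09 (adjusted p = 0.0177) and POLR2C at -0.63 ± 0.14 (limma, adjusted p = 0.0283). Whether the lists differ in their shares was not tested.

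**Figure D4:**
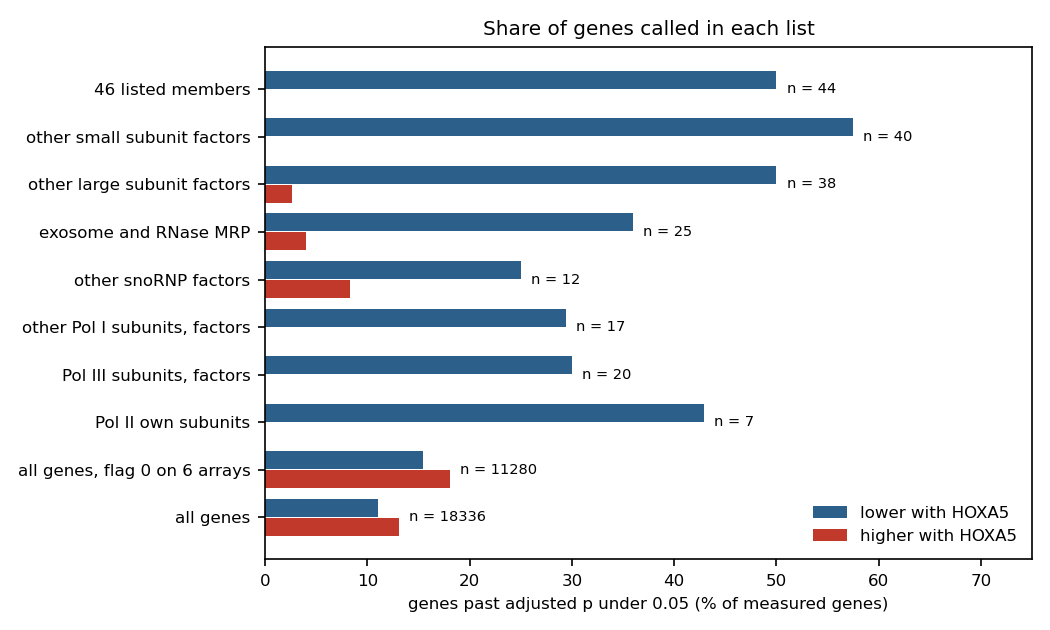
Share of measured genes called lower (blue) or higher (red) with HOXA5 at an adjusted p under 0.05 (x axis, percent) in the members, 7 related lists and all genes, with the number of genes beside each bar. The members stand at 50% lower and 0 higher, all genes at 11% lower and 13.1% higher.

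Of the factors the study is about, MXD1 was higher at 1.14 ± 0.09 (adjusted p = 0.00153), while MYC had -0.50 ± 0.46 (adjusted p = 0.527) and MAX -0.07 ± 0.11 (limma, adjusted p = 0.757). MYC read 1192, 548 and 988 in raw intensity on the HOXA5 arrays and 1639, 895 and 1655 on the control arrays, and was lowest on replicate 2 in both groups. Its part in the result was not tested.

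Promoter windows of 300 bases, 250 before and 50 after the start, were at hand for 38 of the 46 members (47 windows), NHP2 and DDX10 included. The E-box CACGTG lay in a window of 17 of the 38 (44.7%), and in a window of 11% of the 14641 array genes with one. By window the shares were 38.3% of 47 and 7.26% of 35116. The member E-boxes also sat close to the start: 16 of 20 (80.0%) began within 50 bases of it, against 36.9% of 2821 in all windows, and 9 (45.0%) began in the first 25 bases after it, against 6.81%.

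The presence of the E-box was then set beside the calls, with no test. Of the measured members with a window, 7 of 18 called lower (38.9%) and 10 of 18 not called (55.6%) held it. The median change was -0.43 in the 17 with it and -0.60 in the 19 without. NOP56, HEATR1, POLR1A, NCL and DKC1 were lower without an E-box in their windows, while FBL and MRTO4, with 1 each just after the start, were not called. The letters CCGGAAG, the core of ETS factor motifs, searched on both strands, lay in a window of 39.5% of members and 16.8% of array genes. TAATTA, the core of many homeobox motifs and its own reverse complement, lay in none of the 38, against 4.46% of array genes. That difference was not tested, and a share so low leaves few matches to find in 38 genes. Such matches describe letters in these windows only. No window was used for NOP58, NOLC1, RRP12, BOP1, RRP1B, RRS1, DDX18 and POLR1E.

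**Figure D5:**
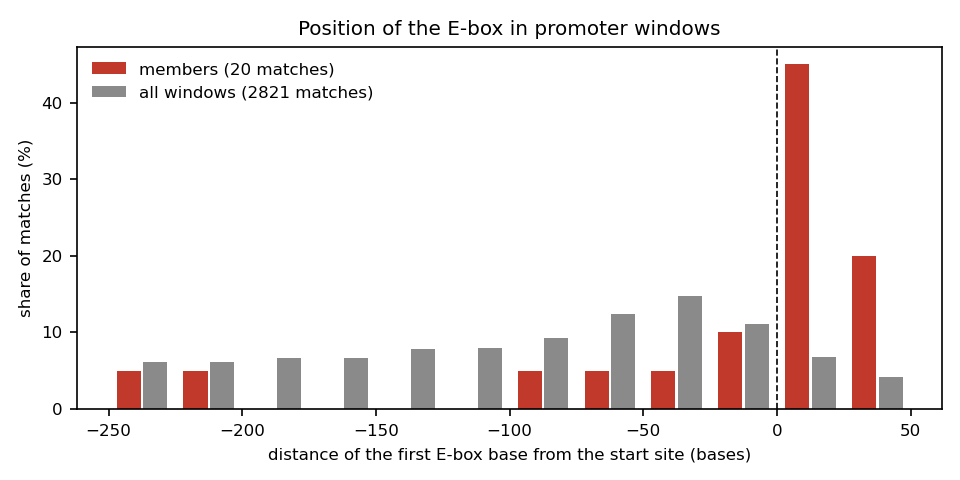
Share of E-box matches (y axis, percent) by distance from the start site in bins of 25 bases (x axis) for 20 matches in members (red) and 2821 in all RefSeq windows (grey). The tallest red bar, 45.0%, covers the first 25 bases after the start, where the grey bar is 6.81%.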

How the data were processed

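RNA of 3 HOXA5 overexpression and 3 normal control samples of TFK-1 was amplified, labelled with Cy5 and hybridized to Human OneArray slides, which an Agilent scanner read. The authors deposited linear raw intensity values, -2 to 65516, for each probe on each array. The deposited detection p-value was not used, and the deposited flag of 0 marks probes that are not dim. How the images were extracted and background was subtracted is not given in the sources used here. The authors' second intensity table, made with GeneSpring per the methods, served as an alternative. It holds the raw values times 1 constant per array, and how the constants were set is unknown.

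An offset of 50 was added, log2 taken and the arrays quantile normalized. The fit by limma 3.58.1 (lmFit, eBayes; R 4.3.3) took all 31741 probes, with two-sided tests and Benjamini-Hochberg adjustment across these probes. The offset understates changes of dim genes. A gene was its single-symbol probe of highest mean. In all, 24740 probes carried 1 symbol, 977 several and 6024 none, and 1948 symbols were updated. A gene was called at an adjusted p under 0.05, and at least 2-fold also needed a log2 change of 1. Raw values of 65000 or more were taken as saturated. The number of arrays limits the precision.

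Promoter windows came from RefSeq on GRCh38.p14, matched by symbol. Quantile normalization and the fit were tested on simulated arrays with known changes and with noise independent between arrays, unlike the correlated arrays here. The other steps were not simulated.

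The members, lists and tests were chosen with earlier results of these data known. Values on every array were given, by rule, for members lower or higher at least 2-fold, the Pol I subunits, NCL, NPM1, FBL, and members whose probes differed in call. Of each other list up to 3 genes by adjusted p and any called against it were named. The values of DKC1, NOP58, UTP18, NOP14, WDR43, WDR12 and MRTO4 on every array, and the printed promoters, were chosen after their values were seen. The alternatives changed the offset, scaling, source of values, dim-probe filter, replicate block, test, variance prior, probe rule and arrays.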

Additional observations from a re-analysis of the deposited data

How the results depend on the processing

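Of the 22 members called lower, UTP20, UTP18, HEATR1, PES1 and DDX18 were called lower in all 17 alternatives. NOP56, NOP14, NOP2, BOP1, PPAN and NCL lost the call only without both replicate 3 arrays, RRP1B also with the authors' values, and the other 10 without at least 1 single array. Of those 10, all but NOC2L also lost it in a setting that kept every array. No called member reversed. The count of members called lower was 14 by the methods' t-test, 5 without both replicate 3 arrays (4 at least 2-fold) and 13 to 24 with 1 array left out. Members called higher numbered 1 (MRTO4) with an offset of 100 and with cyclic loess, and 0 to 1 with 1 array left out. The median change of the members was -0.68 with median scaling and -0.69 with the authors' values. All genes called lower numbered 1047 with the authors' values, 1192 by the methods' t-test, 402 without both replicate 3 arrays and 1073 to 2624 with 1 array left out; those called higher numbered 1062, 1589, 609 and 1387 to 2797 under the same settings. The related lists had 35, 42, 6 and 38 to 83 genes called lower, in the same order. The alternatives without arrays rest on fewer samples; for the others the cause was not tested. Changes near 0 turned sign: FBL had 0.0451 with cyclic loess and -0.1313 to 0.0167 with 1 array left out, PWP2 -0.69 to 0.0858, POLR1C -0.1633 to 0.0388 and MAX -0.1574 to 0.0507 with 1 array left out, MAX 0.2123 as the mean of its probes, and the saturated NPM1 probe 0.0204 with median scaling, 0.2314 with cyclic loess and 0.0056 with the authors' values.

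Samples of both groups carry numbers 1 to 3. The deviations from the group means were correlated over the probes with a mean intensity above the median. The correlation was -0.15, 0.64 and 0.73 for same-numbered arrays, and HOXA5 replicate 1 correlated best with control replicate 3 (0.48), so the numbers are not taken as pairs. With the replicate block 32 members were lower (72.7%, all genes 13.9%), all 22 among them, and MYC, not called in any other alternative, was called lower (-0.50, limma, adjusted p = 0.0188).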

Other observations

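Of 43 members (NPM1 left out as saturated), HOXA5 and control arrays were both lowest on replicate 2 in 14, both on replicate 3 in 9 and both on replicate 1 in 6, together 67.4%. Of the 11218 genes at flag 0 on all arrays and not saturated the same held for 52%. These were 2245 genes on replicate 2, 2341 on replicate 3 and 1250 on replicate 1. Whether the members differ from all these genes was not tested. PWP2, WDR75, RRS1, NIP7 and GTPBP4 were among those lowest on replicate 2 in both groups, as was MYC. Median raw intensity was 176 on HOXA5 replicate 2 and 166 on control replicate 2, close to that of replicate 1 in both groups.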
